A study of Mus musculus with 8 samples.

Results

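The small leucine-rich proteoglycans (SLRPs) were followed through the cells of mouse dorsal skin as a set of 8 genes, Dcn, Lum, Bgn, Fmod, Ogn, Aspn, Prelp and Podn. The members were taken by their symbols, all 8 were found, and they are 8 of the 31053 genes counted. SLRPs are secreted matrix proteins with a core of leucine-rich repeats, and several of them carry glycosaminoglycan chains of the chondroitin, dermatan or keratan sulphate type. In skin they lie along collagen fibrils, whose diameter and spacing they help to set, and some of them bind growth factors such as those of the TGFβ family. Fibroblasts (FBs) of the dermis are the main cells known to make them.

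Dorsal skin was taken from mice injected under the skin, giving 4 libraries after PBMCsec, the secretome of irradiated human peripheral blood mononuclear cells, and 4 after vehicle. The animals of both groups were female BALB/c mice of 14 to 16 weeks, and biopsies of 4 mm were digested to single cells and counted as unique molecular identifiers (UMIs, 1 per captured transcript) with 10x Genomics 3′ chemistry. The study's methods describe injected scars taken at an earlier and a later time, and the labels do not say which library belongs to which, so time and library number cannot be told apart. The labels give no genotype beyond the strain, no time after treatment, no composition of the vehicle and no statement that the skin was scarred. Libraries are named by treatment and number, and nothing in the labels says that equal numbers share a day or an animal.

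The libraries held between 14753926 and 37880651 UMIs and 26231 barcodes in all. Of these barcodes, 16900 exceeded the limit of 5% mitochondrial UMIs, and 6150 cells were kept, between 151 and 1659 per library. Vehicle 1 and 2 gave the fewest FBs, 31 and 27, against 70 to 548 in each of the other libraries. Pairs of libraries shared between 0 and 10 barcodes and at most 2 kept cells. In all, 1606 cells in 8 clusters were taken as FBs, mainly by the markers Col1a1, Col1a2, Col3a1, Pdgfra, Dpt, Serpinf1, Loxl1 and Mfap5. This list holds no SLRP, and the SLRPs were also left out of the genes used for clustering. Of the 8 FB clusters, that led by Ednrb had as many smooth muscle and pericyte markers as FB markers, 4 of each, and that led by Slc26a7 showed only Pdgfra of the FB markers. The Ednrb cluster (117 cells) and the Slc26a7 cluster (70 cells) thus did not meet the naming rule. They were taken as FBs by a rule set after the clusters were seen, which asked for at least 3 markers of an FB subtype and an FB marker. Without them 1419 FBs remain.

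Several SLRP genes lie side by side in the genome (build GRCm38). Dcn (chr10:97479609-97518143, plus strand) and Lum (chr10:97565128-97572703, plus strand) are 47.0 kb apart with no coding gene between them, and Kera and Epyc, also SLRPs, follow. Aspn (chr13:49544443-49567565, plus strand) and Ogn (chr13:49608046-49624501, plus strand) flank the SLRP gene Omd, and all lie inside the gene Cenpp on the opposite strand, of which 18 UMIs were counted in FBs. Prelp (chr1:133910304-133921414, minus strand) and Fmod (chr1:134037254-134048277, plus strand) are 116 kb apart. Bgn (chrX:73483602-73495933, plus strand) and Podn (chr4:108014791-108096445, minus strand) stand apart from the other members, and the span of Podn overlaps that of Scp2 on the same strand.

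The promoters of 3 members, Aspn, Ogn and Bgn, are shown. Aspn and Ogn, neighbours in 1 locus, differed over the 8 FB clusters described below (Pearson r = -0.19), where Bgn was like Aspn (0.84) and not like Ogn (-0.29). Over all 35 cell clusters Aspn and Ogn were alike (0.82). Each promoter is 250 bases ending just before the transcript start, on the plus strand, from RefSeq GRCm38.p6. There, 6 of the 8 members had an entry (not Dcn and Lum). Capitals mark matches on either strand to the TATA box, searched with the letters TATAAA, the CCAAT box, searched with these letters, the GC box, searched with the letters GGGCGG, or the TEAD motif, searched with the letters CATTCC.
Aspn, chr13:49544193-49544442: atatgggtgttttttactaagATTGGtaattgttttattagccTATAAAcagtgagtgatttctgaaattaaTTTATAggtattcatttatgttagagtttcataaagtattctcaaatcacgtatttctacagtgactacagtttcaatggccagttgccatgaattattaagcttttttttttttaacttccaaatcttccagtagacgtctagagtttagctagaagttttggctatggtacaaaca
Ogn, chr13:49607765-49608014: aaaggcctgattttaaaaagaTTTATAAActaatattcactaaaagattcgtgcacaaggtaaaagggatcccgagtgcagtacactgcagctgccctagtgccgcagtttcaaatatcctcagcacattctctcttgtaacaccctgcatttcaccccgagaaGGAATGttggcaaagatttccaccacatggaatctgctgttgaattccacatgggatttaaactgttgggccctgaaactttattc
Bgn, chrX:73483351-73483600: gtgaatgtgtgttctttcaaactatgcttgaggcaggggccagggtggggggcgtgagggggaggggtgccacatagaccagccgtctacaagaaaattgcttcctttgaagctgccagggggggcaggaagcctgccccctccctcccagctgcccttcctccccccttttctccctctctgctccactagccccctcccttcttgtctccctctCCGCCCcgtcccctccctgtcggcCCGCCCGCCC
The Aspn window held 2 TATA box matches and 1 CCAAT box match, and the Ogn window held 2 overlapping TATA box matches and 1 TEAD motif match. The Bgn window held 3 GC box matches, of which 2 overlap at its right edge, and no TATA box match. Of all promoter windows of this length in the table, 12.4% held a TATA box match, 33.9% a CCAAT box match, 32.7% a GC box match and 12.6% a TEAD motif match. The share of G and C was 30% for Aspn, 42.0% for Ogn and 64.4% for Bgn, against a median of 52.4% over all windows. Of the other members, Prelp held 1 CCAAT box match, 1 of 2 Podn entries held 2 GC box matches, and Fmod held none of these motifs. The AP-1 motif, searched with the letters TGACTCA or its other form TGAGTCA, and the E-box, searched with the letters CACGTG, were in none of these members' windows, against 4.46% and 6.02% of all windows. No motif match was tested against the counts.

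Most SLRP transcripts were counted in FBs, and Dcn, Bgn, Aspn, Prelp and Podn were also counted in many cells of single clusters elsewhere. FBs held 27.2% of all UMIs but 97.9% of Dcn, 98.9% of Lum, 95.1% of Aspn, 92.2% of Podn, 89.2% of Prelp and 81.9% of Bgn UMIs. Counts were scaled to CPM, the UMIs of a gene per 1000000 UMIs of the class. Levels are compared for the same gene between cells, and levels of different genes are not compared. Pooled over libraries, Dcn, the decorin gene, stood at 11746 CPM in FBs, 104 in hair follicle cells, 60.3 in keratinocytes (KCs) and 36.0 in T and B cells. Of the 603 Dcn UMIs of KCs, 440 were in 1 cell, and vehicle 3 was the highest library in KCs and in hair follicle cells, at 190.1 and 187 CPM against library medians of 12.1 and 55.7.

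**Figure D1:**
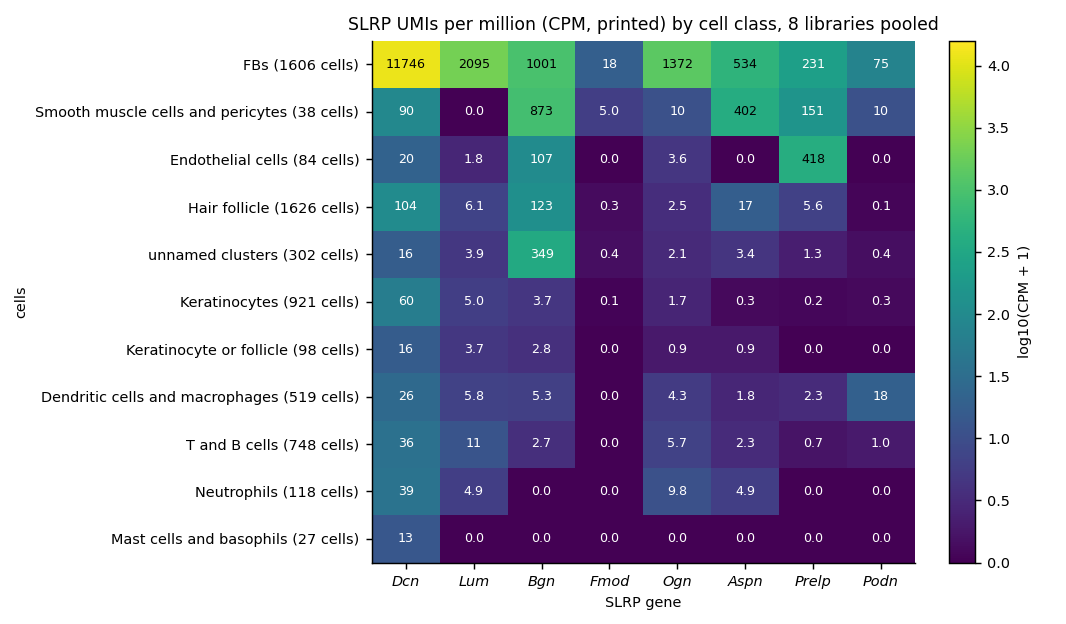
Heat map of the 8 SLRPs (columns) by cell class (rows, with cell numbers, 1 small cluster not shown), pooled over the 8 libraries; the printed values are CPM of the class's UMIs and the colour is log10(CPM + 1). Of the classes shown, FBs hold the highest level of every gene but Prelp, which is at 418 CPM in endothelial cells and 231 in FBs, and Bgn is at 873 CPM in smooth muscle cells and pericytes.

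Free RNA in droplets gives UMIs in cells that do not express a gene, so shares of cells with a UMI are given with those of T and B cells and KCs as background, after each cell was thinned to 2000 UMIs, which left out 92 FBs. Of 1514 FBs, 95.1% (exact 95% interval 93.9 to 96.1) had a Dcn UMI, against 6.93% of 649 T and B cells and 2.85% of 877 KCs. The median depths before thinning were 8577.5 UMIs in FBs, 3314 in T and B cells and 10971 in KCs. Without thinning, 95.8% of FBs had a Dcn UMI. Lum was detected in 83.2% of thinned FBs (library range 50% to 95.3%), Ogn in 75.2% (20.8% to 83.4%), Bgn in 54.3% (46.6% to 79.2%), Aspn in 47.7%, Prelp in 33.0% and Podn in 11.9%. These shares depend on depth: without thinning they were 88.0% for Lum, 83.9% for Ogn, 72.8% for Bgn, 75.4% for Aspn, 64.8% for Prelp, 32.3% for Podn and 2.30% for Fmod. In T and B cells the shares were 0.77% for Lum, 0.77% for Ogn, 0.31% for Bgn and 0.15% for Podn. For Fmod, whose product fibromodulin takes part in collagen fibril assembly, 1.19% (0.71 to 1.87) of FBs had a UMI and 0 of 649 T and B cells did, which allows a share of up to 0.46% (3 counts of the total) for counting error alone. A median of 4 members was detected per thinned FB, and 89.2% of FBs had at least 3, whereas 90.9% of T and B cells and 95.3% of KCs had none.

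Bgn encodes biglycan, a close relative of decorin. Its pooled level was 1001 CPM in FBs and 873 CPM in the smooth muscle and pericyte cluster led by Rgs5, where 34 of 38 cells had a UMI. Cells with a Bgn UMI there had a median of 16.5 FB marker UMIs against 1 in the cells without, and the part of these in the level was not tested. It was also counted at 358 CPM in the hair follicle cluster led by Id4, Gnmt and Scrg1, in 289 of 349 cells, beside 82 Dcn UMIs. In the unnamed cluster led by Dio3, Tagln and Acta2, Bgn stood at 415 CPM in 183 of 214 cells, and Dcn at only 29 UMIs.

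Prelp encodes PRELP, a matrix protein that anchors basement membranes to collagen. In the endothelial cluster led by Ccl21a and Mmrn1, which are lymphatic endothelial genes, it reached 677 CPM, with 227 UMIs in 41 of 50 cells and in all 8 libraries, beside 9 Dcn UMIs. PBMCsec 1 to 4 gave 35, 32, 26 and 39 of these UMIs, from 5, 3, 7 and 9 cells, and vehicle 1 to 4 gave 3, 55, 23 and 14, from 2, 10, 11 and 3 cells. In the other endothelial cluster, led by Fabp4 and Plvap, 3 UMIs were counted in 34 cells, a level of 13.9 CPM. Podn encodes podocan, which is known to restrain smooth muscle growth. It was counted at 69.4 CPM in the cluster led by Cd207, a gene of Langerhans cells, with 68 UMIs in 44 of 124 cells and in all 8 libraries, beside 14 Dcn UMIs. The UMIs were 7, 3, 13 and 15 in PBMCsec 1 to 4 and 10, 4, 12 and 4 in vehicle 1 to 4. In the macrophage cluster led by C1qb, 0 Podn UMIs were counted in 160 cells.

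Aspn, the asporin gene, was counted at 402 CPM in the Rgs5 cluster, with 80 UMIs in 27 of 38 cells (median of 21 FB marker UMIs in these cells against 8 in the others), and at 115 CPM in the hair follicle cluster led by Ptn, Gm973 and Grem1. In the latter, its 236 UMIs fell in 43 of 274 cells and in 4 of the 7 libraries with such cells. PBMCsec 3 and 4 gave 134 and 45 of these UMIs, and vehicle 3 and 4 gave 39 and 18. The 22 such cells of PBMCsec 1 gave 0. Dcn was counted in the follicle cluster led by Krt25, Krt71 and Tchh, in 111 of 282 cells of 7 of the 8 libraries, with 1304 UMIs. Of these UMIs, 880 came from vehicle 3, which gave 125 of the cells. The cells with a Dcn UMI there had a median of 0 FB marker UMIs, and the same cluster held 14 Lum and 4 Ogn UMIs.

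Some signal outside FBs came with FB transcripts. Over all cells outside FBs, the 54 of 4544 cells with at least 10 FB marker UMIs held 41.8% of the Dcn UMIs outside FBs, 44.7% of the Lum UMIs and 7.42% of the Bgn UMIs.

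Among FBs the SLRPs did not follow 1 order of clusters. Levels between clusters are a description, because the clusters rest on genes of the same cells, and they are given as the mean of library CPM, with a library entered where it had at least 10 cells of the cluster. The 8 SLRPs together took 2.52% of the UMIs in the cluster led by Mfap4 and Cyp26b1, 2.08% in that led by Myoc and Mgp, 0.86% in that led by Ednrb and Lrrc15, and 0.18% in that led by Slc26a7 and Crabp1. The Ednrb and Slc26a7 clusters showed 6 and 3 of 8 dermal sheath and papilla markers, whereas the clusters led by Sfrp2, Mrgprg, Ace and Ptx3 hold all 6 fascia-type markers and are called fascia-type here.

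**Figure D2:**
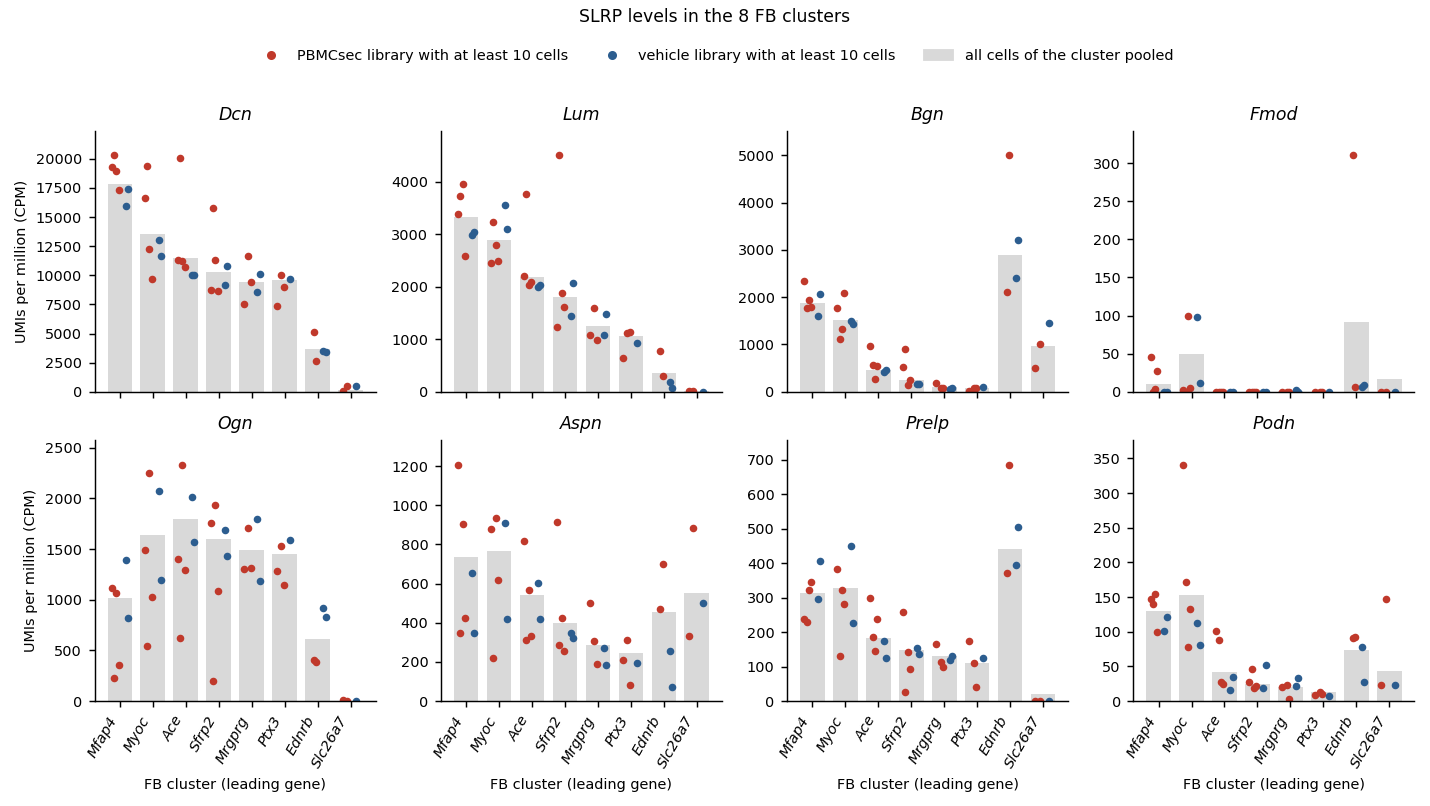
Level of each SLRP in the 8 FB clusters in CPM of cluster UMIs, with grey bars for all cells of a cluster pooled and points for libraries with at least 10 of its cells, coloured by treatment. Dcn, Lum and Ogn are lowest in the Slc26a7 cluster, while Bgn is highest in the Ednrb cluster and lowest in the Mrgprg and Ptx3 clusters.

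Dcn, whose protein binds collagen I fibrils and TGFβ, was highest in the Mfap4 cluster, at 18205 ± 1597 CPM (SD, n = 6 libraries), followed by the Myoc cluster at 13765 ± 3583 (n = 6), and the Mfap4 level was the higher in 6 of 6 libraries. The fascia-type clusters ranged from 9006 ± 1189 (Ptx3, n = 4) to 12223 ± 3897 (Ace, n = 6), which overlap each other and the Myoc cluster in range. The Ednrb cluster stood at 3678 ± 1049 (n = 4) and the Slc26a7 cluster at 340 ± 248 (n = 3), and the order between these was the same in 2 of 2 libraries. In the Slc26a7 cluster PBMCsec 1 was at 55.1 CPM and PBMCsec 3 and vehicle 3 at 464 and 502.

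Lum encodes lumican, which spaces collagen fibrils and is also made in cornea. It stood at 3282 ± 507 CPM in the Mfap4 cluster and 2943 ± 435 in the Myoc cluster (n = 6 each), where the order held in 4 of 6 libraries, and at 338 ± 311 in the Ednrb cluster (n = 4). In the Slc26a7 cluster only 4 UMIs were counted. Ogn codes for osteoglycin (mimecan), which also regulates collagen fibrils. It stood at 1538 ± 598 in the Ace cluster and 1429 ± 647 in the Myoc cluster (n = 6 each). The Mrgprg cluster was at 1461 ± 273 (n = 5), the Ptx3 cluster at 1387 ± 207 (n = 4) and the Sfrp2 cluster at 1347 ± 633 (n = 6). These clusters differed by less than their spread. Ogn was at 830 ± 453 (n = 6) in the Mfap4 cluster and 636 ± 282 (n = 4) in the Ednrb cluster, and 1 UMI was counted in the Slc26a7 cluster.

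Bgn had another order, with its highest level in the Ednrb cluster, at 3181 ± 1299 CPM (n = 4, 2119 to 5004), above the Mfap4 cluster at 1919 ± 257 (n = 6) in 4 of 4 libraries, then the Myoc cluster at 1538 ± 342. The Slc26a7 cluster stood at 995 ± 475 (n = 3). In the fascia-type clusters it stood at 541 ± 233 (Ace), 362 ± 302 (Sfrp2), 94.7 ± 49.4 (Mrgprg) and 65.4 ± 38.0 (Ptx3). Of the SLRP UMIs of a cluster, Bgn made up 33.6% in the Ednrb cluster and 0.57% in the Ptx3 cluster.

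Aspn, whose product asporin binds collagen and TGFβ, had a pooled range of 3.10-fold between clusters, with wide spread over libraries. It ran from 248 CPM in the Ptx3 cluster to 768 in the Myoc cluster. With the Slc26a7 cluster set aside, pooled Ogn ran from 612 CPM in the Ednrb cluster to 1794 in the Ace cluster, a range no wider than that of Aspn. Prelp was highest in the Ednrb cluster, at 490 ± 144 CPM (n = 4), above the Myoc cluster at 299.6 ± 114 (n = 6) in 3 of 4 libraries. Podn reached 153 ± 98.7 CPM in the Myoc cluster and 127 ± 23.5 in the Mfap4 cluster (n = 6 each), whose order held in 4 of 6 libraries, against 10.1 ± 2.46 in the Ptx3 cluster (n = 4). Fmod was counted with 127 UMIs in the Myoc cluster, 79 in the Ednrb cluster and 30 in the Mfap4 cluster, and with 0 UMIs in the Sfrp2, Ace and Ptx3 clusters. Most of the Ednrb UMIs came from PBMCsec 3, at 310 CPM against 6.13 to 9.05 CPM in each of the other libraries with at least 10 such cells.

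Over the 8 FB clusters, Pearson r of pooled log2(CPM + 10) was 0.99 for Dcn and Lum, 0.97 for Dcn and Ogn, 0.89 for Bgn and Podn and 0.84 for Bgn and Aspn. It was -0.20 for Dcn and Bgn and -0.19 for Ogn and Aspn, whereas over all 35 cell clusters it was 0.63 and 0.82 for these pairs. The Slc26a7 cluster, with Dcn at 172 CPM, 4 Lum UMIs and 1 Ogn UMI, lay far below the others for these genes. The Mfap4 cluster had the highest Dcn, yet its pooled Ogn of 1015 CPM was below the 1454 to 1794 CPM of the fascia-type clusters. The 8 points share libraries and differ in depth, and no test was made. The genes whose pattern over all 35 cell clusters was most like that of a member, among 12788 genes with at least 100 UMIs, were Lum (r = 0.96), Htra3 (0.95) and Ogn (0.95) for Dcn, and Ogn (0.98), Pcolce2 (0.97) and Olfml1 (0.97) for Lum. For Bgn they were 2700081O15Rik (0.94), Bace1 (0.94) and Tgfb1i1 (0.92), and for Aspn Col6a1 (0.99), Col6a2 (0.98) and Adamts2 (0.97). For Prelp the nearest were Ecm2 (0.95), Sned1 (0.94) and Fxyd1 (0.94), for Podn Pdgfrl (0.88), Svep1 (0.88) and Klhl33 (0.87), and for Fmod Ptprd (0.89), Lrrc15 (0.88) and Gm30075 (0.88). Over the 8 FB clusters alone several of these were lower, with 0.66, 0.64 and 0.49 for Aspn and Col6a1, Col6a2 and Adamts2, and 0.28 for Prelp and Sned1. Of these genes, Lrrc15 is itself a leading gene of the Ednrb cluster.

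PBMCsec 2 lay at the end of the range of Dcn and Ogn within clusters, and it is singled out after its values were seen. Vehicle 1 and 2 had no cluster with 10 cells, so 6 libraries were ranked. In the Sfrp2, Mfap4, Myoc and Ace clusters, its only clusters with at least 10 cells, it had the highest Dcn of the ranked libraries in 4 of 4, at 15778, 20307, 19420 and 20096 CPM. It also had the lowest Ogn in 4 of 4, at 203, 231, 540 and 618 CPM, and the lowest Prelp in 3 of 4. The FBs of PBMCsec 2 were 70 cells. Over all FBs, however, vehicle 2 had less Ogn (372 against 489.8 TMM-scaled CPM), and in the Mfap4 and Myoc clusters together it had Dcn at 20087 against 21214 CPM.

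**Figure D3:**
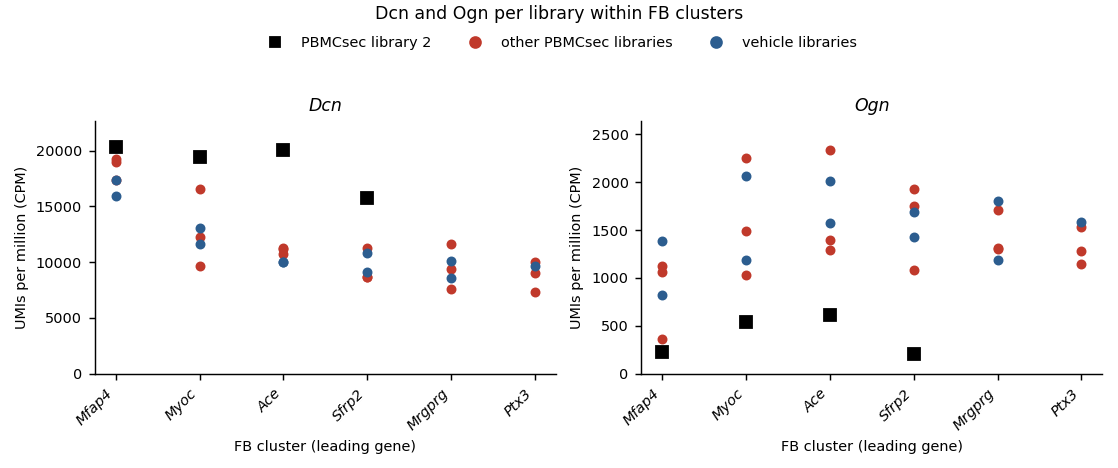
Dcn and Ogn in CPM in 6 FB clusters, with a point per library of at least 10 cells, PBMCsec 2 as black squares and the other libraries coloured by treatment. Vehicle 1 and 2 had too few cells to be plotted. PBMCsec 2 lies at the top of Dcn and at the bottom of Ogn in the 4 clusters where it is plotted.

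PBMCsec against vehicle was compared over libraries, with the counts of each library's FBs summed and scaled by TMM, and 0 of 9586 genes tested (0%) were called (edgeR's quasi-likelihood test, Benjamini-Hochberg adjusted p under 0.05). DESeq2 also called 0, and 187 genes, or 1.95%, had an unadjusted p under 0.05 in edgeR (165 in DESeq2). No SLRP was called, and each had an adjusted p of 1.0 in the edgeR test. The labels call the 4 libraries of a group separate samples without saying from how many mice, so the p-values measure only the spread between these libraries, which may be technical.

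In TMM-scaled CPM, Dcn was at 12513, 18371, 12761 and 10519 in PBMCsec 1 to 4 and at 5263, 9568, 10416 and 11452 in vehicle 1 to 4. Vehicle 1 was the lowest and PBMCsec 2 the highest, and the groups overlapped. The log2 fold change was 0.56 (SE 0.27), with an unadjusted edgeR p of 0.058 and an exact permutation p of 0.0571. The smallest p that the 70 labellings allow is 0.0286.

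Lum was at 1952, 3570, 2327 and 1725 CPM after PBMCsec and 1141, 1054, 1904 and 2207 after vehicle, and the groups overlapped, with vehicle 4 above 2 of the PBMCsec libraries. Its log2 fold change was 0.60 (SE 0.30, exact permutation p = 0.171). Podn stood at 154, 121, 63.1 and 57.4 CPM against 25.7, 78.7, 58.5 and 64.0. PBMCsec 1 and 2 were the highest, PBMCsec 4 was below 3 vehicle libraries, and the log2 fold change was 0.78 (SE 0.37, exact permutation p = 0.257).

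Bgn stood at 1260, 1098, 820 and 1390 CPM after PBMCsec and at 546, 1002, 961 and 1083 after vehicle, with a log2 fold change of 0.34 (SE 0.25). Vehicle 1 was the lowest, and PBMCsec 3 lay below 3 of the vehicle libraries. The other members changed by less than their errors. Ogn was at 1299, 489.8, 1706 and 976 CPM after PBMCsec and 1111, 372, 1523 and 1160 after vehicle (log2 fold change 0.09, SE 0.42), with library 2 the lowest in each group. Aspn was at 837, 309, 610 and 379 CPM against 729.9, 456, 484 and 307 (0.12, SE 0.34), with library 1 the highest in each group.

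Prelp was at 265, 148, 216 and 254 CPM after PBMCsec and 179.7, 419.7, 242 and 233 after vehicle (-0.26, SE 0.28), with vehicle 2 the highest of all. Fmod was at 8.55, 0, 32.7 and 9.89 CPM against 3.67, 52.5, 14.5 and 4.13 (0.25, SE 0.78), and its direction turned without PBMCsec 3 (-0.88). Its group means ran against the fitted change, at 12.8 ± 14.0 against 18.7 ± 23.1 CPM (SD, n = 4). The groups overlapped for each of these genes. Of all genes tested, 137 (1.43%) had groups that did not overlap, and none of the 8 SLRPs did.

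**Figure D4:**
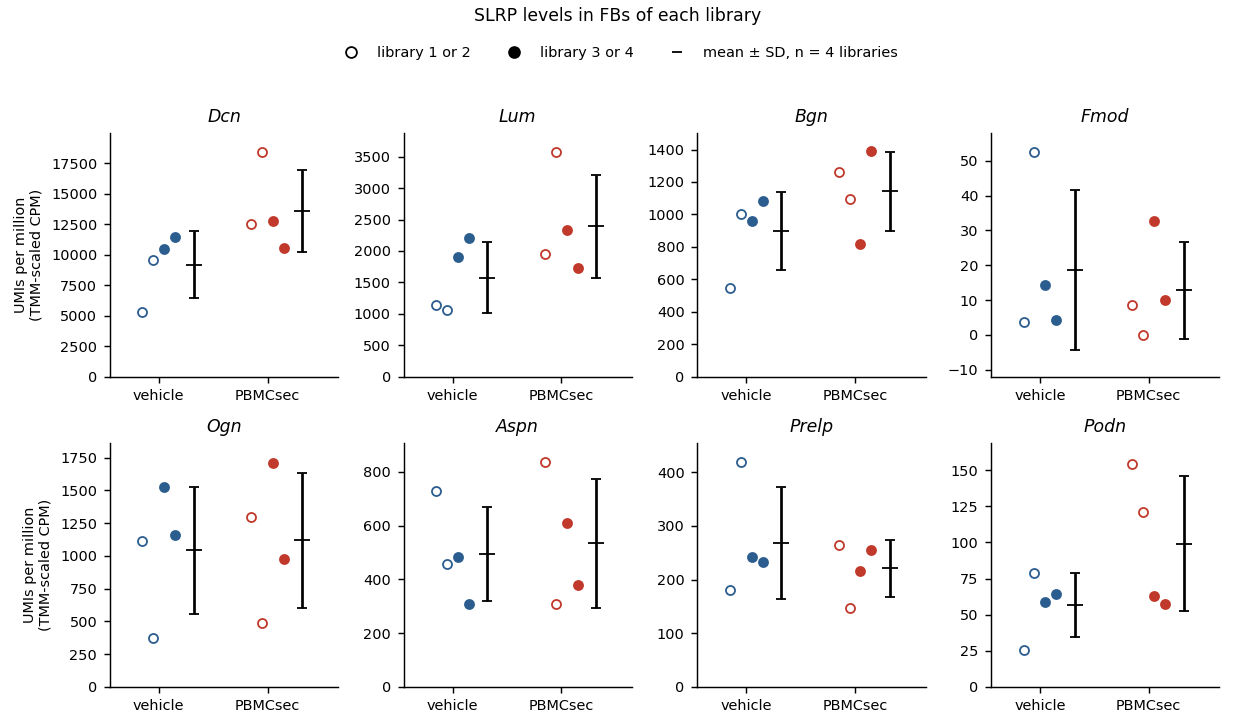
TMM-scaled CPM of each SLRP in the FBs of the 8 libraries by treatment, with open points for libraries 1 and 2, filled points for libraries 3 and 4, and the mean ± SD of each group (n = 4). The groups overlap for all 8 genes, and for Dcn vehicle 1 lies at 5263 CPM, below every other library.

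Markers of other cell types and of FB subtypes were summed in the same FBs. In none of 17 lists did the PBMCsec and vehicle libraries separate, and the 10 smooth muscle and pericyte markers, none of them at 0, summed to 67.4 to 789 CPM after PBMCsec and 95.9 to 1063 CPM after vehicle. Of the adipocyte markers, Adipoq, Cidec and Lep were at 0. The share of FBs in the fascia-type clusters was 40.6% to 59.7% after PBMCsec and 44.4% to 61.3% after vehicle. Shares of single clusters varied more: the Myoc cluster held 12.2% to 34.3% after PBMCsec and 7.41% to 19.4% after vehicle. The Slc26a7 cluster held 1.43% to 11.7% and 2.86% to 22.2%.

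The size of the change was also compared between library numbers. For libraries 1 and 2 alone the log2 change was 1.07 for Dcn, 1.35 for Lum and 1.48 for Podn, and for libraries 3 and 4 alone it was 0.098, -0.013 and -0.0049. Fitted as an interaction, a test added after the data were seen, the difference of these changes was -0.97 (SE 0.43, adjusted p = 0.80) for Dcn, -1.35 (SE 0.44, adjusted p = 0.74) for Lum and -1.51 (SE 0.53, adjusted p = 0.76) for Podn by edgeR. For Fmod it was 3.22 (SE 1.47, adjusted p = 0.80). Of 9586 genes, 0 were called and 596 had an unadjusted p under 0.05. The FB make-up of libraries 1 and 2 also differed between treatments. The Slc26a7 cluster held 11.7% and 1.43% of the FBs of PBMCsec 1 and 2, against 9.68% and 22.2% in vehicle 1 and 2. The Myoc cluster held 27.4% and 34.3% against 19.4% and 7.41%. The part of this make-up in the changes was not tested.

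Beyond FBs, 4 classes had 10 or more cells in each library: hair follicle cells, KCs, T and B cells, and dendritic cells and macrophages. In each of them edgeR called 0 genes (0%), while 350 (3.57%), 79 (1.04%), 136 (3.07%) and 263 (4.7%) genes had an unadjusted p under 0.05. DESeq2 called 2, 5, 3 and 6. In hair follicle cells the log2 change after PBMCsec was 0.45 (SE 0.35) for Bgn and 1.79 (SE 0.80) for Aspn. In dendritic cells and macrophages it was -0.63 (SE 0.45) for Podn, and each of these changes had an adjusted p of 1.0 by edgeR. Aspn stood at 54.4 CPM in the hair follicle cells of PBMCsec 3, 18.2 in PBMCsec 4 and 0 to 8.05 in the other libraries. Of the 72 Podn UMIs of dendritic cells and macrophages, 68 were in the Cd207 cluster. This cluster held 11, 6, 35 and 15 of the 80, 34, 127 and 80 cells of the class in PBMCsec 1 to 4. In vehicle 1 to 4 it held 6, 4, 33 and 14 of 24, 15, 105 and 54. The part of this make-up in the Podn change was not tested.

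Further SLRPs, enzymes of glycosaminoglycan chains in general (not only those of SLRPs), binding partners, and cleavage and maturation genes were also followed in FBs. Log2 changes are those after PBMCsec. Of the 8 members, 7 had a fitted change above 0 and 1 below (median 0.30), with the means of Fmod running the other way, and over all 9586 genes the median was -0.0045. Of 10 further SLRPs, Ecm2 (2621 FB UMIs), Omd (910) and Tsku (106) were tested, with log2 changes of 0.54, -0.35 and 0.07, and 0 were called. For Tsku the means ran the other way, at 7.71 after PBMCsec and 12.2 CPM after vehicle. The others had few FB UMIs: Chadl 96, Kera 38, Epyc 24, Podnl1 8, Nyx 4, Optc 3 and Chad 0. Podnl1 was counted mainly outside FBs, with 139 of its 300 UMIs in the T and B cell cluster led by Ctla4, Icos and Cd28, in 82 of 332 cells. Of the enzymes that build glycosaminoglycan chains, 23 of 29 were tested and 12 were lower and 11 higher (median log2 change -0.06). The 2 with the smallest unadjusted p in each direction were Ext1 (-0.45) and Chpf (-0.60), and Chst12 (0.26) and Chst2 (0.56).

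Of 21 binding partners and receptors, 12 were lower and 9 higher (median -0.03), with Col12a1 (-0.92) and Igf1r (-0.39), and Tgfb3 (0.45) and Tlr2 (0.55), as the 2 with the smallest unadjusted p in each direction. Of 15 cleavage and maturation genes, 11 were tested and 5 were lower and 6 higher (median 0.12). Bmp1 (-0.66), which cleaves procollagens and SLRP propeptides, and Adamts5 (-0.57) had the smallest p among the lower genes, and Pcolce (0.49) and Adamts1 (0.35) among the higher ones. Of these genes edgeR called 0, and 1 of the cleavage and maturation genes had an unadjusted p under 0.05.

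The FBs of libraries 3 and 4 were also compared with those of 1 and 2, with treatment in the model. This split was chosen because library numbers had parted these FBs in earlier results of the same data. The calls therefore describe the split and are no independent test of it. Of 9586 genes 72 (0.751%) were called by edgeR, 48 (0.501%) lower and 24 (0.25%) higher in libraries 3 and 4, 1287 (13.4%) had an unadjusted p under 0.05, and 871 (9.09%) did not overlap between these sets of libraries. None of the 8 members was called in all FBs, and all 8 overlapped. Their log2 differences ran from -0.62 for Podn to 0.77 for Fmod, with 0.71 for Ogn (adjusted p = 0.42), 0.15 for Bgn and 0.08 for Dcn. For Fmod and Dcn the means ran against the fitted sign, at 15.3 CPM in libraries 3 and 4 against 16.2 for Fmod and 11287 against 11429 for Dcn. Omd, of the further SLRPs, did not overlap (72.2 against 29.5 CPM, log2 difference 1.04, adjusted p = 0.27 by edgeR). Of the 17 marker lists, 2 separated the library numbers in all FBs: 18 hair follicle markers summed to 30.8 to 90.9 CPM in libraries 1 and 2 and 101 to 259 CPM in libraries 3 and 4, and 6 fascia-type markers to 1449 to 6096 and 6159 to 6795 CPM. Their part in these differences was not tested. Of the listed genes, Col6a2 (-1.09, adjusted p = 0.04) and Pcolce2 (1.41, adjusted p = 0.03) were called.

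Bgn differed by library number in the fascia-type clusters, a comparison made after its values were seen. Its TMM-scaled levels there were 439, 646, 137 and 234 CPM in PBMCsec 1 to 4 and 367, 577, 159.8 and 192 CPM in vehicle 1 to 4. Every library numbered 1 or 2 lay above every library numbered 3 or 4, at 507 ± 127 against 181 ± 42.0 CPM (SD, n = 4). The log2 difference was -1.49 (SE 0.26, adjusted p = 0.028), and 25 of 7430 genes (0.336%) were called, 22 of them (0.296%) lower, by edgeR with Benjamini-Hochberg adjustment. Among those 7430 genes, 7.07% did not overlap between the same sets of libraries.

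**Figure D5:**
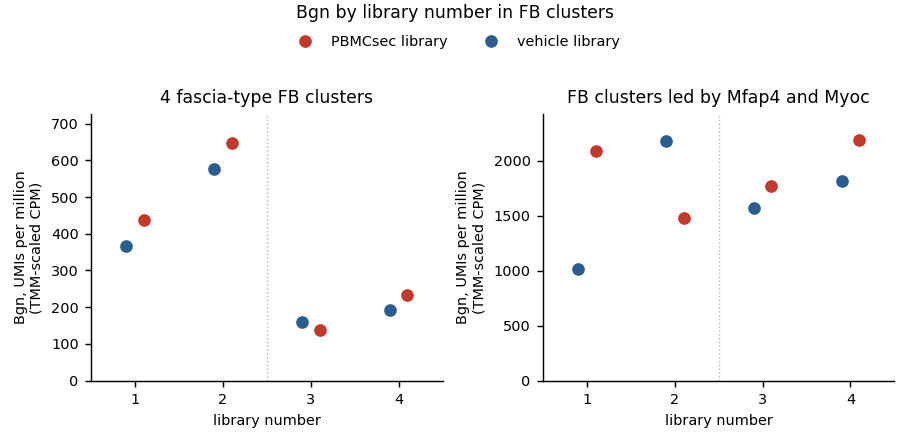
Bgn in TMM-scaled CPM by library number in the fascia-type clusters (left) and in the Mfap4 and Myoc clusters (right), with a point per library coloured by treatment. On the left the libraries numbered 1 and 2 (367 to 646 CPM) lie above those numbered 3 and 4 (137 to 234 CPM), and on the right they overlap.

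In the Mfap4 and Myoc clusters the levels of Bgn were 2087, 1475, 1766 and 2183 CPM in PBMCsec 1 to 4 and 1014, 2175, 1570 and 1811 CPM in vehicle 1 to 4, which overlapped between the library numbers (log2 difference 0.12, adjusted p = 0.94 by edgeR). Of 6609 genes tested there, 24 (0.363%) were called, 16 (0.242%) of them lower, and 8.08% did not overlap. Markers of another FB type moved with Bgn in the fascia-type clusters: the summed level of 4 dermal Cxcl12-type markers was 1613 to 3293 CPM in libraries 1 and 2 and 734 to 962 CPM in libraries 3 and 4. The part of these markers in the Bgn difference was not tested. No other of the 17 lists separated the library numbers in these clusters. The make-up of the set also differed: the Ptx3 cluster held 10, 0, 0 and 0 cells in PBMCsec 1, PBMCsec 2, vehicle 1 and vehicle 2, and 52, 10, 16 and 5 in PBMCsec 3, PBMCsec 4, vehicle 3 and vehicle 4.

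Within single fascia-type clusters Bgn could be compared only for libraries with 10 cells, of which PBMCsec 1 and 2 are the only ones numbered 1 or 2. In the Sfrp2 cluster they stood at 530.0 and 904 CPM against 132 to 257.5 in libraries 3 and 4, and in the Ace cluster at 965 and 569 against 278 to 554. In the Mrgprg cluster PBMCsec 1 was at 182 against 62.5 to 77.6, but in the Ptx3 cluster it was at 9.17 against 78.9 to 92.8. The fascia-type FBs of vehicle 2 held 105250 UMIs, the fewest, against 2725182 in PBMCsec 3. With each library left out in turn the log2 difference stayed between -1.63 and -1.33, the edgeR adjusted p ranged from 0.039 to 0.124, and the call was lost without PBMCsec 3, PBMCsec 4, vehicle 2, vehicle 3 or vehicle 4. DESeq2 gave an adjusted p of 6.9e-05 but called 80 of the same 7430 genes. Without a filter on low counts edgeR gave an adjusted p of 8.9e-05 and called 311 genes, against 25 with the filter. Among the 311 was Ogn, with a log2 difference of 0.88 (adjusted p 0.012, edgeR). With the filter Ogn was not called (log2 difference 0.77, adjusted p 0.45, edgeR).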

How the data were processed

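Single cells of 8 libraries (4 PBMCsec, 4 vehicle) were measured as UMI counts. The authors deposited, for each library, the unnormalized counts of 31053 genes by barcode, made with Cell Ranger 3.0.2 on mm10 per the file headers and the submitters' processing notes, while the paper's methods name another Cell Ranger version. The study's limits were applied to each barcode (from 500 to 4000 genes detected, no more than 20000 UMIs, mitochondrial share up to 5%), and Gm42418, Gm17056 and Gm26917 were removed. Cells were integrated and clustered with Seurat 5.3.0 (2000 features, 30 dimensions, resolution 1), with 84 listed genes, SLRPs included, left out of the features. Clusters were named from marker lists, with a further rule, set after the clusters were seen, for clusters that the lists left unnamed. Of 6150 cells, 302 stayed unnamed. Scrublet marked 21 cells (0.341%), and whether it missed doublets was not tested. No cell was removed as a doublet, and removing the 309 highest-scoring cells was an alternative. Counts were summed per library and tested with edgeR 4.0.16 (R 4.3.3, TMM, filterByExpr, quasi-likelihood, Benjamini-Hochberg), with DESeq2 1.42.0 as an alternative and a check on simulated data. Exact permutation tests were run in R 4.3.3. Intervals, made with scipy 1.17.1, are exact Clopper-Pearson or Poisson and cover counting error only. A depth of 198068 to 4728778 FB UMIs per library limited the precision of low members such as Fmod. Positions are from GENCODE on GRCm38 and promoters from RefSeq GRCm38.p6. The members, the lists and the tests were chosen with earlier results of these data known. The 8 members, 10 other SLRPs and, of 3 lists, every called gene and otherwise the 2 with the smallest unadjusted p in each direction were named. Fits within single FB clusters could not be run, because no cluster had 10 cells in 3 libraries of each group. The SLRP levels of 1 cluster are not reported here.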

Additional observations from a re-analysis of the deposited data

How the results depend on the processing

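The limits below hold for the treatment comparison in FBs unless said otherwise, and no SLRP was called there under any alternative (lowest adjusted p 0.42 for Lum, libraries 1 and 2 alone, edgeR). Of 164 alternative values of the 8 members, 148 kept their direction and side of the threshold and 16 turned direction. The turns included Fmod at -0.45 with DESeq2, -0.38 with a 10% mitochondrial limit and -0.39 without the follicle-associated clusters. Prelp turned to 0.013 without vehicle 2. Aspn was at -0.049 in libraries 1 and 2 alone and -0.068 in the Mfap4 and Myoc clusters alone. Ogn was at -0.15 in those clusters. In libraries 3 and 4 alone Lum was at -0.013 and Podn at -0.0049. Leaving out 1 library gave -0.18 to 0.39 for Aspn, -0.88 to 0.74 for Fmod, -0.18 to 0.35 for Ogn, -0.38 to 0.013 for Prelp, 0.18 to 0.48 for Bgn, 0.38 to 0.69 for Dcn, 0.35 to 0.81 for Lum and 0.46 to 0.98 for Podn. Same-numbered libraries deviated together only weakly, with r = 0.20, -0.01, 0.10 and 0.24 for numbers 1 to 4. With differently numbered vehicle libraries, PBMCsec 1 to 4 gave -0.41 to 0.21, -0.04 to 0.07, -0.12 to 0.06 and -0.20 to 0.19. The same-number value was thus above the others for numbers 3 and 4. The labels state no pairs, and the numbers were not taken as pairs. With the replicate block 0 genes were called and Dcn was at 0.59. The causes were not tested. Of 16 alternative shares of FBs with a UMI, 14 moved past the exact interval, and at 1000 UMIs per cell Aspn was at 30.8%, Prelp 19.3%, Podn 7.01% and Fmod 0.69%.

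For libraries 3 and 4 against 1 and 2, Prelp turned to 0.0029 without a filter, Bgn to -0.28 without the follicle-associated clusters and to -1.49 in the fascia-type clusters, and Ogn, at 0.77, passed the threshold without a filter (adjusted p 0.015, edgeR). Leaving out 1 library gave -0.25 to 0.25 for Prelp, -0.36 to 1.89 for Fmod, -0.17 to 0.29 for Dcn and -0.043 to 0.34 for Bgn. The count of called genes, 72, was 231 with DESeq2, 597 without a filter, 45 with the 10% limit, 43 with the marker gate, 38 without the follicle-associated clusters, 25 in the fascia-type clusters and 13 to 147 without 1 library. PBMCsec against vehicle gave 3 called genes in libraries 1 and 2 alone. In other classes the 0 called became, in dendritic cells and macrophages, 6 with DESeq2, 108 without a filter and 6 with the replicate block (0 to 1 without 1 library), in hair follicle cells 2 with DESeq2 (0 to 1), in KCs 5 with DESeq2 and 8 without a filter (0 to 5), and in T and B cells 3 with DESeq2, 36 without a filter and 5 with the replicate block (0 to 2).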
